A study of Mus musculus with 8 samples.

Results

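Nuclei of excitatory cortical neurons that carried RNA of both Tshz2 and Vwc2l were examined, a selection written for near-projecting neurons of layers 5 and 6. A nucleus was taken when it had at least 500 detected genes, at most 2% mitochondrial UMIs (unique molecular identifiers, each standing for 1 captured RNA molecule) and at least 1 UMI of Slc17a7. It also needed at least 5 UMIs of Tshz2 and at least 2 of Vwc2l, at most 1 UMI of Gad1 and Gad2 summed, and at most 2 UMIs of Slc1a3, Mog, Inpp5d and Flt1 summed. In all, 1500 nuclei met the rule, of 97772 barcodes and of 42073 excitatory-type nuclei, which met every term except those on Tshz2 and Vwc2l. The nuclei were thus selected on their measured UMIs of these genes. They are called Tshz2/Vwc2l nuclei here, because further markers of the near-projecting class were found in only part of them.

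Near-projecting neurons are a sparse class of glutamatergic cells whose axons stay near the cell body. They thereby differ from layer 6 corticothalamic (CT) neurons, which project to the thalamus, from layer 5 extratelencephalic (ET) neurons, which project out of the telencephalon, and from intratelencephalic (IT) neurons, which link cortical areas. Tshz2 encodes a teashirt-family zinc finger protein, Slc17a8 the vesicular glutamate transporter VGLUT3, and Trhr the receptor of thyrotropin-releasing hormone. Chd8 encodes a chromatin remodeller of the chromodomain helicase family, and loss-of-function variants in it are tied to autism in people.

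The nuclei came from 8 C57BL/6J mice at postnatal day 25, 4 wild type (WT) and 4 heterozygous for Chd8 (Chd8het). Each genotype had 2 males and 2 females, and every animal gave 1 library. The WT and heterozygous animals were matched for litter and sex. The tissue was cerebral cortex without its medial part, and no label describes the Chd8 allele. In each sex and genotype, replicate 1 carried single and replicate 2 dual sequencing indices, so replicate number and index type cannot be told apart. Libraries held 69503598 to 98132783 UMIs, and the sums over Tshz2/Vwc2l nuclei 1150148 to 2981342. Values by library are listed throughout as males 1 and 2, then females 1 and 2. WT libraries gave 116, 232, 149 and 185 of these nuclei, and Chd8het libraries 180, 279, 167 and 192. Chd8het male 2 stood apart from the other libraries in several markers below. Values without it are given for the share, for counts of calls and for some of the genes only. Between 16 and 34 barcodes were shared by any pair of libraries after filtering, and 0 of the selected barcodes were shared.

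The defining markers were examined first. Levels are given as CPM, the gene's share of all UMIs of the summed nuclei scaled to 1e6. Tshz2 and Vwc2l were fixed by the rule and are therefore a description. Tshz2 ran from 2390 to 3218 CPM over the 8 libraries (median 2613), against 5.92 to 28.3 CPM in other excitatory nuclei, and Vwc2l from 661 to 997 CPM. Other excitatory nuclei were those with at most 1 UMI of Tshz2, 0 of Vwc2l and a total UMI count within the range of the selected nuclei of the same library, 30298 in all.

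Slc17a8, Trhr and Lypd1, which the rule does not read, were far above the other excitatory nuclei in every library. Slc17a8 (chromosome 10, 89574020 to 89621253, GRCm38) was at 7.38 CPM in the lowest library, 29.1 in the median and 36.9 in the highest, against 0.341, 0.489 and 0.711 CPM in other excitatory nuclei. Its fold difference was 45.5 (log2 5.51, SE 0.20, adjusted p 2.78e-15, edgeR with a block for library, n = 8 libraries). Trhr (chromosome 15, 44196135 to 44235912) had 13.0, 25.2 and 40.3 CPM, against 0.507, 0.828 and 4.04 CPM, a fold difference of 20.6 (log2 4.36, SE 0.30). For Lypd1, a Ly6-family membrane protein gene on chromosome 1 that Gpr39 overlaps on the other strand, these levels were 47.1, 65.0 and 85.3 CPM against 5.44, 8.90 and 18.1 CPM (log2 2.73, SE 0.12). The groups did not overlap for any of the 3 genes, though the share of all genes without overlap was not counted (26.2% of all genes were called in this comparison). Trhr and Lypd1 were highest in Chd8het male 1, and Slc17a8 was lowest in Chd8het male 2.

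At the level of single nuclei, further markers were detected in part of the set. At least 1 UMI of Slc17a8, Trhr or Lypd1 was present in 768 of the 1500 nuclei (51.2%), between 40.6% in Chd8het female 2 and 63.3% in Chd8het male 1. The same share among other excitatory nuclei was 5.08% to 14.5%, with the highest value in Chd8het male 2. Lypd1 alone was found in 7.22% of those nuclei on average and Slc17a8 in 0.474%, and background was not told apart from expression there. After every nucleus was thinned to 4000 UMIs, which left out 95 of the selected nuclei and 2623 of the other excitatory nuclei, the mean share was 34.9 ± 7.05% (SD, n = 8 libraries) against 3.99 ± 1.49%. Without thinning these means were 51.7% and 8.49%. Median UMIs per nucleus were 7509 to 11019 in the selected nuclei and 7685 to 10977 in the others.

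**Figure D1:**
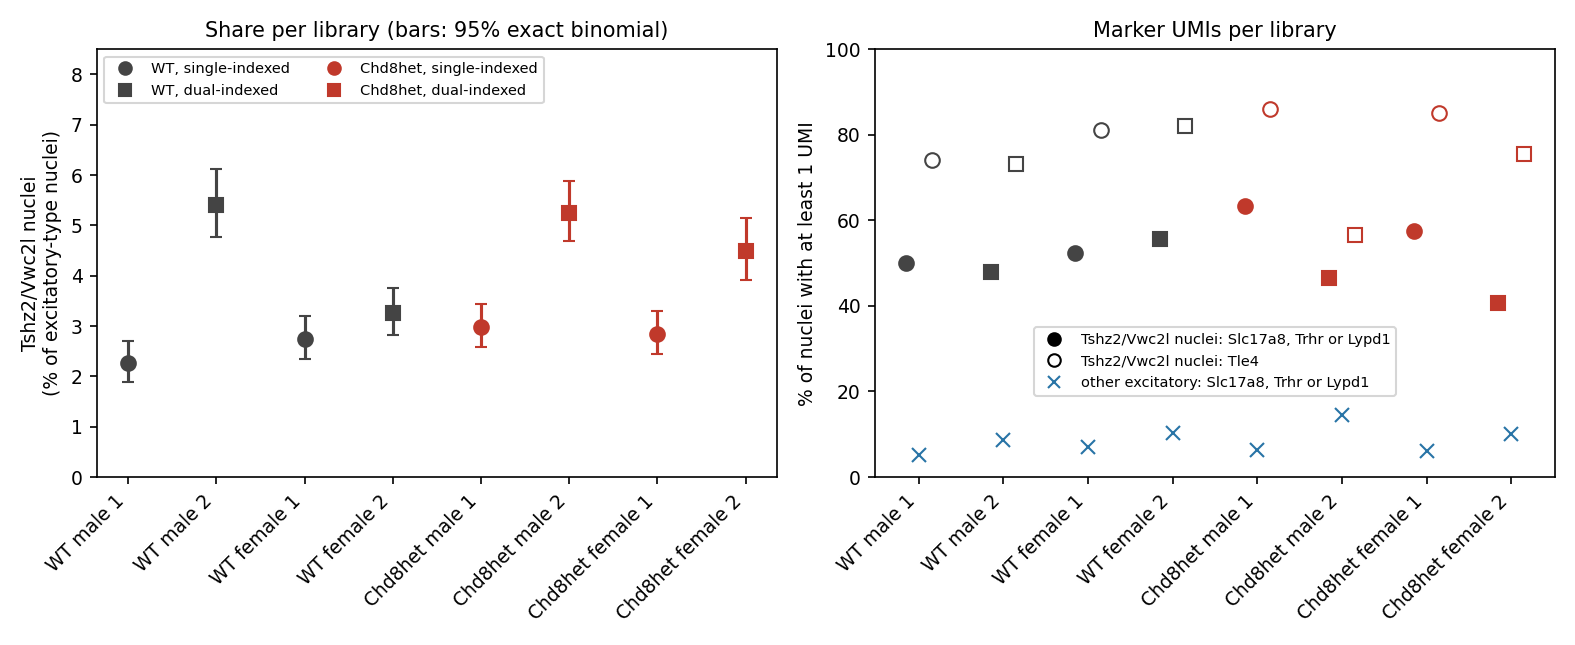
Left, Tshz2/Vwc2l nuclei as a percentage of excitatory-type nuclei in each library, with 95% Wilson score intervals (called exact binomial in the panel title), which cover counting error only. Right, percentage of nuclei with at least 1 UMI of Slc17a8, Trhr or Lypd1 (filled) or of Tle4 (open) among Tshz2/Vwc2l nuclei, and of the 3 markers among other excitatory nuclei (crosses). The dual-indexed libraries lie at 3.26% to 5.40% on the left and the single-indexed ones at 2.26% to 2.97%. On the right, 40.6% to 63.3% of selected nuclei carry a marker, above the crosses in all 8 libraries.

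The nuclei with and without a marker UMI differed in other genes too. Nuclei with at least 1 UMI of the 3 markers also carried Tle4, a corepressor gene of deep-layer neurons on the L6 CT list, in 88.3% of cases, against 61.6% of the 732 nuclei with none. At least 2 UMIs of Parm1, listed for layer 5 ET neurons, were found in 9.77% of the first and 20.4% of the second. For Cux2, an upper-layer transcription factor gene, these shares were 9.51% and 17.8%, and for Rorb, a layer 4 factor gene, they went the other way (18.1% and 14.8%). The shares were not adjusted for total UMIs, whose medians were 8505.5 with and 9430 without a marker. These medians were furthest apart in WT female 2 (8502 and 13655). They went the other way in WT male 1 (8588.5 and 7666) and Chd8het male 1 (8095.5 and 8060). By library, the Parm1 share was lower in the nuclei with a marker in 8 of 8, though close in Chd8het male 2 (8.46% and 9.40%). The Cux2 shares were nearly level in Chd8het male 1 (7.89% and 7.58%) and WT female 2 (10.7% and 10.98%) and highest in Chd8het male 2 (21.5% and 34.2%). The Rorb shares were furthest apart in Chd8het male 2 (15.4% and 8.05%) and WT male 2 (10.8% and 6.61%). Elsewhere they were closer, as in WT female 1 (21.8% and 21.1%), and in Chd8het female 2 lower with a marker (10.3% and 12.3%). Summed levels of genes outside the rule differed as well. Grik1 had 899 CPM in the nuclei with a marker and 185 CPM in those with none, Nxph1 1297 and 312 CPM, and Hmga2 51.7 and 8.15 CPM, while Pou3f1, also on the ET list, had 1.63 and 13.8 CPM. Summed over its 5 listed genes, the ET list had 74.3 to 176 CPM in the selected nuclei, 51.2 to 82.6 CPM in other excitatory nuclei and 40.2 to 95.5 CPM in the nuclei with a marker. In the same order, the L6 CT list (Foxp2, Hs3st4, Syt6, Rprm and Tle4) had 1193 to 2072, 789 to 1145 and 1478 to 2804 CPM. Hs3st4 (1435 and 805 CPM with and without a marker), Foxp2 (144.5 and 65.5), Tle4 (513 and 243) and Rprm (3.01 and 1.58) were higher with a marker, and Syt6 (6.90 and 11.3) lower. Against other excitatory nuclei 2 of the 5 were higher and 2 lower at adjusted p under 0.05 (edgeR), beside 10.7% and 15.5% of all genes. A low transcript can be missed by chance, and how many of the nuclei with none belong to another class was not tested.

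The libraries differed in which further genes their nuclei carried. Tle4 was present in 56.6% of the selected nuclei of Chd8het male 2 and in 73.3% to 86.1% of those of the other libraries. Among the nuclei of Chd8het male 2 without Tle4, 38.8% had at least 2 UMIs of Cux2. The L2/3 IT list, summed over 4 genes, ran from 45.1 to 110.5 CPM in WT and from 63.8 to 171 CPM in Chd8het, where 171 CPM was Chd8het male 2 and the other 3 libraries reached at most 107.5 CPM. Markers of glia and interneurons, some of which the rule limits, had these sums: endothelial and fibroblast genes summed to 0 to 5.01 CPM, OPC (oligodendrocyte precursor) genes to 9.21 to 20.96 CPM, and MGE interneuron genes to 8.89 to 35.1 CPM. The CGE interneuron list had 85.9 to 96.2 CPM in WT and 86.2 to 153 CPM in Chd8het, highest in Chd8het female 2, against 121 to 166 CPM in other excitatory nuclei. The microglial list had 52.2 to 106 CPM and the oligodendrocyte list 140 to 294 CPM, ranges that overlapped those of other excitatory nuclei. The astrocyte list had 579 to 757 CPM against 438 to 604 CPM in other excitatory nuclei and 667 to 919 CPM in L6 CT-type nuclei. Most of this sum was Slc1a2, with 785 CPM in the selected nuclei with a marker UMI and 502 CPM in those with none. In the same order Gja1 had 2.63 and 4.02 CPM, Aqp4 1.88 and 2.56 CPM, and Slc1a3, which the rule limits, 14.3 and 15.0 CPM. The part of these lists in the results below was not tested.

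Nuclei at the edge of the rule are given as a description. Of the 41 nuclei with exactly 5 UMIs of Tshz2 and enough Vwc2l, 14.6% had a marker UMI, and of the 46 with 4 UMIs, just outside, 32.6%. With exactly 2 UMIs of Vwc2l and enough Tshz2 there were 247 nuclei, 28.3% with a marker UMI. With 1 UMI, just outside, there were 410, 25.4% with a marker UMI.

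The share of Tshz2/Vwc2l nuclei did not separate the genotypes. Of excitatory-type nuclei they were 2.26%, 5.40%, 2.74% and 3.26% in WT and 2.97%, 5.25%, 2.84% and 4.49% in Chd8het. The means were 3.41 ± 1.38% in WT and 3.89 ± 1.18% in Chd8het (SD, n = 4 each), which differed by 0.476 percentage points (p 0.686, exact two-sided permutation test, where 0.0286 is the smallest p possible). The share was higher in Chd8het in 3 of 4 pairs, and the genotypes differed by 0.409 points among single-indexed and 0.542 points among dual-indexed libraries. The difference fell to 0.0213 points without Chd8het male 2, was 0.0917 without WT male 1, 0.251 without WT female 1 and 0.276 without Chd8het female 2, and rose to 1.14 without WT male 2, 0.780 without Chd8het male 1 and 0.824 without Chd8het female 1. Under a looser rule for the nuclei the genotypes differed by 1.15 points, higher in 4 of 4 pairs (p 0.457, exact permutation test), and under a stricter rule by 0.199 points, higher in 2 of 4 (p 0.8286, exact permutation test). For the nuclei with a marker UMI alone the difference was 0.207 points (p 0.571, exact permutation test), 0.477 among single-indexed and -0.063 among dual-indexed libraries. In the full set the index types stood further apart, with 2.704 ± 0.311% for single and 4.597 ± 0.980% for dual indexing (SD, n = 4 each, p 0.0286, exact two-sided permutation test). Median UMIs per selected nucleus moved with this, at 8036 and 10069.5 on average. A further setting thinned nuclei to 4000 UMIs, left out those under 4000 and took the looser rule (at least 3 UMIs of Tshz2 and 1 of Vwc2l). There the index types differed by 1.91 points (p 0.0571, exact two-sided permutation test). For the nuclei with a marker UMI alone they differed by 0.646 points, 1.52% against 2.17% (p 0.0857, exact two-sided permutation test). The difference was at the smallest possible p, 0.0286 (exact permutation test), under the looser rule (2.98 points), under the stricter rule (1.52 points) and for the nuclei with a UMI of Tle4 (1.03 points).

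The next question was which other genes set these nuclei apart from other excitatory neurons. Sums of the selected nuclei were compared with sums of other excitatory nuclei of the same library, then with 3046 L6 CT-type nuclei (at least 5 UMIs each of Foxp2 and Hs3st4) and 7250 L4/5 IT-type nuclei (at least 5 UMIs of Rorb and at most 1 of Foxp2). Chd8het male 2 gave 255 of the L4/5 IT-type nuclei, and the other libraries 665 to 1351 each. From each comparison's counts, the genes that chose either of its kinds of nuclei were left out. The nuclei were gated on their UMIs, so the values describe the gated set. Against other excitatory nuclei, 2067 of 19323 genes were higher (10.7%) and 2995 lower (15.5%) at adjusted p under 0.05 (edgeR, library block), 26.2% in all. Against L6 CT-type nuclei, 2193 of 13740 genes were higher (16%) and 2179 lower (15.9%), 31.8% in all. Against L4/5 IT-type nuclei, 2361 of 13683 were higher (17.3%) and 2353 lower (17.2%), 34.5% in all. In all 3 comparisons, 931 genes were higher and 717 lower, of 13455 tested in each. Without Chd8het male 2 or any other single library, the 3 counts of calls stayed between 4519 and 4862, 3923 and 4164, and 4317 and 4838. Sums cannot tell fewer nuclei expressing a gene from less RNA per nucleus.

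The genes with the largest excess, by the rule for named genes, included a chromatin protein, a neurexin ligand and several receptors. Hmga2, which encodes an architectural chromatin protein better known from embryonic tissue, was at 20.2, 33.2 and 37.9 CPM in the lowest, median and highest library, against 0.0502, 0.207 and 0.445 CPM in other excitatory nuclei. That is a 125-fold difference (log2 6.97, SE 0.24, adjusted p 8.09e-16, edgeR). The groups were far apart, but 3 annotated genes overlap Hmga2 (chromosome 10, 120361275 to 120476469), and strand use in counting is not given in the sources used here. Nxph1, which encodes neurexophilin 1, a secreted ligand of alpha-neurexins, had 367, 952 and 1277 CPM against 35.5, 59.8 and 72.7 CPM (log2 3.86, SE 0.16). Its lowest level was that of Chd8het male 2. The others were Myzap (log2 5.06), Lcp1 (5.06), the syntrophin gene Sntb1 (4.23), the noncoding RNA Mirt1 (4.18), the lipid transfer gene Stard5 (4.10), the Wnt inhibitor gene Dkk2 (4.02), and Npsr1, the neuropeptide S receptor (3.94). Each of these was higher in 8 of 8 libraries in all 3 comparisons.

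By the same rule, which asks for calls alike in all 3 comparisons, genes with the largest deficit included 3 signalling genes and a guidance cue. Inhba, which encodes the activin beta A subunit, had 5.01, 9.97 and 14.4 CPM against 24.9, 35.6 and 44.9 CPM in other excitatory nuclei (log2 -1.87, SE 0.13, adjusted p 8.08e-11, edgeR). The BMP receptor gene Bmpr1b was at log2 -1.63 and the potassium channel gene Kcnh4 at -1.60. Sema3a, a secreted semaphorin, had 19.997, 36.1 and 44.6 CPM against 62.9, 83.3 and 120.2 CPM (log2 -1.401, SE 0.11). The Notch coactivator gene Maml3 (log2 -1.42), St6gal2 (-1.29), Wdr17 (-1.38), Arhgap15 (-1.42), Zbtb7c (-1.402), Cpne5 (-1.43), Atp6ap1l (-1.34) and Sorbs2os (-1.52), an antisense RNA whose reads cannot be told apart from those of Sorbs2, completed the list. All 12 were lower in 8 of 8 libraries against other excitatory nuclei. Against L6 CT-type nuclei the log2 differences were smaller for Inhba (-0.50), Kcnh4 (-0.68), Cpne5 (-0.52), Sorbs2os (-0.49), Arhgap15 (-0.59) and Bmpr1b (-0.80). There 2 libraries went the other way for Inhba and 1 each for Kcnh4 and Cpne5, and in DESeq2 Inhba did not pass (adjusted p 0.0518). Against L4/5 IT-type nuclei 1 library went the other way for Sema3a.

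**Figure D2:**
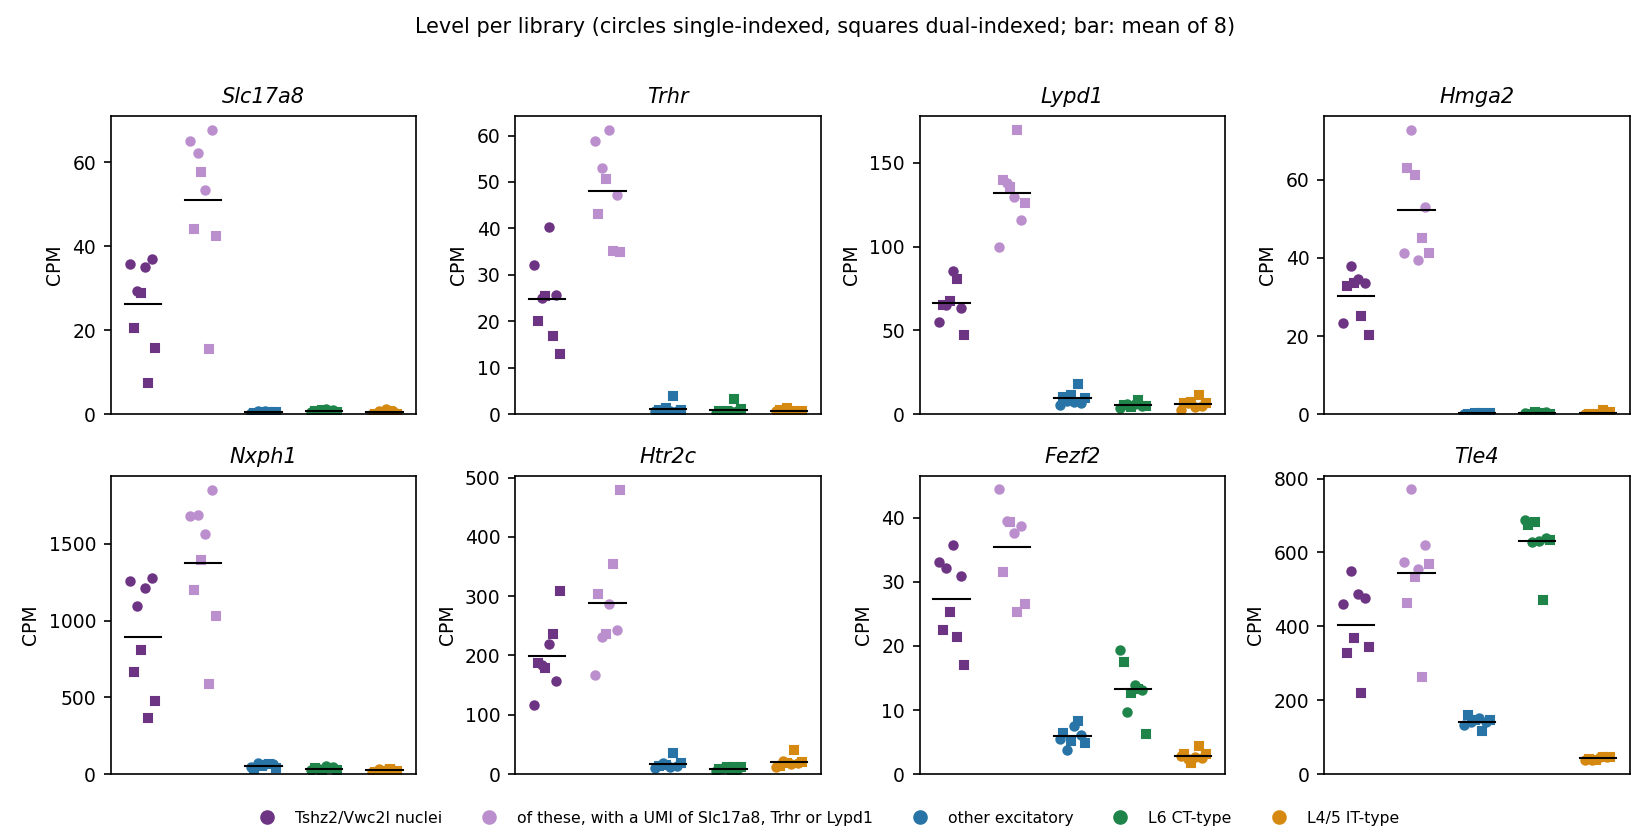
Level in CPM of 8 genes per library (points, circles for single-indexed and squares for dual-indexed) in Tshz2/Vwc2l nuclei, the part of them with a UMI of Slc17a8, Trhr or Lypd1, other excitatory nuclei, L6 CT-type nuclei and L4/5 IT-type nuclei, with the mean of 8 libraries as a bar. The first 3 genes chose the nuclei of the second column, so for them that column is fixed by the choice. Slc17a8 stays at or below 1.25 CPM in the 3 comparison groups, while the mean of Tle4 is highest in L6 CT-type nuclei.

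Among vesicular glutamate transporters, Slc17a6 (VGLUT2) was also higher than in other excitatory nuclei, with 16.2, 19.2 and 27.8 CPM against 3.83, 4.84 and 6.17 CPM (log2 1.96, SE 0.14). It was higher than in L6 CT-type (log2 3.21) and L4/5 IT-type nuclei (0.96) too, in 8 of 8 libraries. Slc17a7 (VGLUT1) was part of the rule and had 159 to 248 CPM. In the teashirt family, Tshz3 was higher (log2 0.77, SE 0.06) and Tshz1 lower (-1.18, SE 0.14) than in other excitatory nuclei. Tshz1 was at -2.14 against L4/5 IT-type nuclei, and its value against L6 CT-type nuclei, 0.44, did not pass the test (adjusted p 0.0967, edgeR).

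Of 25 cortical layer transcription factors tested, 10 were higher and 11 lower than in other excitatory nuclei, with a median log2 difference of 0.03 against -0.05 over all genes, of which 10.7% were higher and 15.5% lower. Etv1, an ETS factor of layer 5, had 126, 265 and 336 CPM against 32.1, 44.3 and 57.5 CPM (log2 2.41, SE 0.09, adjusted p 1.62e-15, edgeR). Fezf2, a selector gene of deep-layer projection neurons, had 17.0, 28.1 and 35.7 CPM against 3.72, 5.82 and 8.26 CPM (log2 2.09, SE 0.14). Etv1 and Fezf2 were above all 3 comparison groups in 8 of 8 libraries. Tle4 was above other excitatory (log2 1.399) and L4/5 IT-type nuclei (3.15) and below L6 CT-type nuclei (-0.76), in 8 of 8 libraries each. The cofactor gene Ldb2 was higher (log2 1.11) and the zinc finger gene Zeb2 lower (-0.93).

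Of 30 neuropeptide and hormone receptors tested, 4 were higher and 10 lower than in other excitatory nuclei, with a median log2 difference of -0.30 beside -0.05 over all genes. The share higher was near that of all genes (10.7%, with 15.5% lower). The 4 were Trhr, Hcrtr2, the galanin receptor gene Galr1 (log2 2.28) and the PACAP receptor gene Adcyap1r1 (0.63), of which the last pair was named after the values were seen. The orexin receptor gene Hcrtr2 had 28.5, 42.6 and 85.3 CPM against 4.70, 11.2 and 18.7 CPM (log2 1.90, SE 0.16). Against L6 CT-type nuclei, which had 10.9, 52.7 and 83.6 CPM, its difference of -0.10 did not pass the test and changed sign between settings, so no direction is given. The mu opioid receptor gene Oprm1 was lower than in all 3 groups (log2 -1.002, -2.13 and -0.50). The cannabinoid receptor gene Cnr1 (log2 -1.11) and the VIP receptor gene Vipr1 (-0.96) were lower than in other excitatory nuclei.

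Monoamine and acetylcholine receptors were split, with 11 of 37 higher and 8 lower than in other excitatory nuclei, beside 10.7% and 15.5% of all genes. The serotonin receptor gene Htr2c (chromosome X, 146962513 to 147197277) had 117, 186 and 309 CPM against 11.2, 14.0 and 36.0 CPM (log2 3.51, SE 0.11, adjusted p 3.15e-16, edgeR). It is the host of several small RNAs, whose reads cannot be told apart from it here. Htr4, another serotonin receptor gene, had 55.1, 89.3 and 184 CPM against 6.06, 12.2 and 21.5 CPM (log2 3.003, SE 0.13). Htr2a went the other way (log2 -1.04, SE 0.09), though it was higher than in L6 CT-type nuclei (0.58, in 7 of 8 libraries). Of the muscarinic receptors, Chrm2 was higher (log2 1.91, SE 0.09) and Chrm3 lower (-1.21, SE 0.10). Chrm2 had 189.8, 272 and 336 CPM against 50.3, 58.9 and 95.9 CPM, and Chrm3 392.1, 583 and 827 CPM against 1066, 1315 and 1466 CPM. The groups did not overlap for Htr2c, Htr4, Chrm2 or Chrm3 in this comparison, and the share of all genes without overlap was not counted.

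For glutamate receptor subunits, 10 of 25 were higher and 8 lower than in other excitatory nuclei, against 10.7% and 15.5% over all genes. Relative to L6 CT-type nuclei, 8 were higher and 13 lower of 23, against 16% and 15.9% over all genes. The kainate receptor subunit gene Grik1 had 387, 565 and 828 CPM against 43.9, 57.3 and 72.1 CPM (log2 3.19, SE 0.09, adjusted p 2.50e-17, edgeR). Against L6 CT-type nuclei its difference reached log2 5.29 and against L4/5 IT-type nuclei 2.05. The NMDA receptor subunit gene Grin3a (log2 1.52), the metabotropic receptor gene Grm4 (1.72) and the delta receptor gene Grid1 (0.76) were also higher than in all 3 groups. Grm8 was higher than in other excitatory nuclei (0.84) and lower than in L6 CT-type nuclei (-0.29), a difference that was -0.14 in the nuclei with a marker UMI and did not pass there (adjusted p 0.0863, edgeR).

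Of 48 potassium and HCN channel genes tested, 12 were higher and 17 lower than in other excitatory nuclei, with a median of -0.07 beside -0.05 over all genes, where 10.7% were higher and 15.5% lower. Compared with L6 CT-type nuclei, 17 were higher and 12 lower of 46, with a median of 0.10 (all genes: 16% and 15.9%). Kcnc2, a fast delayed rectifier (Kv3) gene, had 34.8, 109.5 and 131 CPM against 260.3, 328 and 395 CPM (log2 -1.72, SE 0.11). It was also below L4/5 IT-type nuclei (log2 -1.93), and its difference from L6 CT-type nuclei did not pass the test (0.05, adjusted p 0.792, edgeR) and changed sign between settings. Kcnh7 (log2 -0.52), Kcnj6 (-0.75) and Kcnd3 (-0.78) were lower than in all 3 groups.

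Axon guidance genes were called in both directions, 17 higher and 17 lower of 45 (all genes: 10.7% and 15.5%). Compared with L6 CT-type nuclei, 22 were higher and 9 lower of 45 (all genes: 16% and 15.9%), so that the share lower was near that of all genes. The guidance cue gene Ntn1 (netrin 1) had 9.73, 23.1 and 29.4 CPM against 1.55, 2.80 and 3.36 CPM (log2 2.87, SE 0.19). Slit1, a ligand of Robo receptors, was at log2 1.94 and Sema6a at 1.14, both higher than in all 3 groups. The netrin receptor gene Unc5d was lower than in other excitatory (log2 -1.27) and L4/5 IT-type nuclei (-2.14) and higher than in L6 CT-type nuclei (1.63). Ephb1, an ephrin receptor gene, was lower than in all 3 groups (-0.87, -2.11 and -0.53).

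Among cadherins and protocadherins, 6 of 23 were higher and 9 lower than in other excitatory nuclei, where the shares of all genes were 10.7% and 15.5%. Cdh18 was above other excitatory (log2 1.22) and L4/5 IT-type nuclei (2.43) and below L6 CT-type nuclei (-0.63). Pcdh17 was higher than in all 3 groups (1.17, 0.99 and 2.03). Cdh8 was above other excitatory (log2 0.64) and L6 CT-type nuclei (1.94), whereas Cdh10 was lower than in other excitatory (-0.97) and L4/5 IT-type nuclei (-1.25) and higher than in L6 CT-type nuclei (0.79). Cdh13 was lower than in other excitatory (-1.52) and L6 CT-type nuclei (-1.87), and its value against L4/5 IT-type nuclei, 0.08, did not pass the test.

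**Figure D3:**
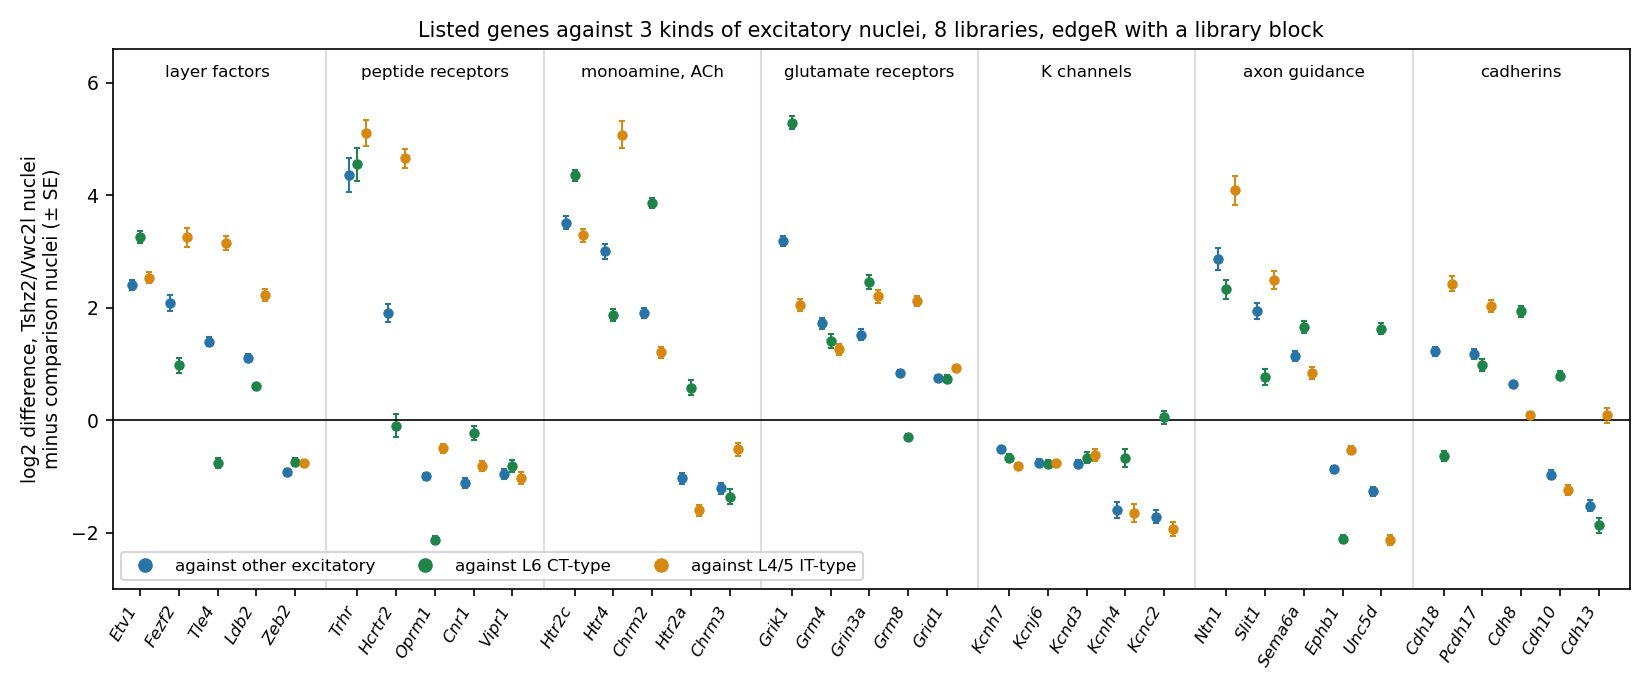
Log2 difference (± SE) of Tshz2/Vwc2l nuclei from other excitatory, L6 CT-type and L4/5 IT-type nuclei for listed genes of 7 groups, from edgeR fits over 8 libraries. Grik1, Htr2c, Htr4, Chrm2, Etv1 and Ntn1 lie above 0 against all 3 groups, and Kcnh7, Kcnj6 and Kcnd3 below 0 against all 3.

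Immediate early genes, which neurons induce on activity, were counted in the same way: 1 of 19 was higher and 10 lower than in other excitatory nuclei, with a median log2 difference of -0.61 beside -0.05 over all genes. Of all genes, 10.7% were higher and 15.5% lower. Bdnf, which encodes brain-derived neurotrophic factor, had 6.33, 9.35 and 25.8 CPM against 15.7, 26.7 and 46.7 CPM (log2 -1.26, SE 0.12, adjusted p 2.40e-08, edgeR). The levels overlapped between libraries, but within each library the difference had this sign in 8 of 8. Homer1 (log2 -0.64), Nptx2 (-1.16) and Npas4 (-1.08) were lower too, and the nuclear receptor gene Nr4a3 was the 1 that was higher (0.75). Nptx2 had only 3 to 18 and Npas4 4 to 15 UMIs per library in the selected nuclei. Against L4/5 IT-type nuclei Nptx2 passed in 9 and Npas4 in 14 of 16 settings. The Bdnf difference from L6 CT-type nuclei (log2 0.52, adjusted p 0.0213, edgeR) passed in only 9 of 16 settings, with log2 values from 0.13 to 0.68 and adjusted p up to 0.765.

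Levels in the nuclei with a marker UMI alone are given for some of these genes. Grik1 had 633 to 1079 CPM in these 768 nuclei, Htr2c 167 to 480 CPM, Chrm2 295 to 461 CPM and Nxph1 587 to 1852 CPM. Chrm3 lay at 267 to 623 CPM. Ldb2, with 489 to 751 CPM, and Unc5d, with 270 to 577 CPM, overlapped the levels of all selected nuclei (505 to 786 and 348 to 605 CPM).

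Genotype was then compared within the selected nuclei. The targeted gene was examined in every library. Chd8 (chromosome 14, 52198151 to 52257780) had 80.0, 75.0, 81.6 and 88.7 CPM in WT and 94.5, 97.3, 87.5 and 95.3 CPM in Chd8het. It was not lower in Chd8het: the value was higher in 4 of 4 pairs, and the difference did not pass the test (log2 0.16, SE 0.11, adjusted p 1, edgeR). Where the reads fall in the gene was not examined, so these levels were not used to check the genotype labels.

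In the model with sex and genotype, 1 of 11640 genes passed (0.00859%, edgeR). At an unadjusted p under 0.05 there were 298 (2.56%), of which 168 were higher (1.44%) and 130 lower (1.12%) in Chd8het. With a block for the 4 pairs of the same sex and replicate number, 3 of 12134 passed (0.0247%), 1 higher (0.00824%) and 2 lower (0.0165%) in Chd8het, and 793 had an unadjusted p under 0.05 (6.54%; 404 higher, 3.33%, and 389 lower, 3.21%). With index type added in place of the block, 2 passed (0.0165%), 1 in each direction (0.00824%). All Chd8het libraries lay above all WT libraries for 1.67% of the genes tested and below them for 0.593%. By index type, 1434 of 12134 genes passed (11.8%), and by sex 6 of 11640 (0.0515%).

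5330434G04Rik, a long intergenic noncoding RNA on chromosome X (105348282 to 105391776), was among the genes followed because earlier results on these data named it. It had 187, 148, 178 and 147 CPM in WT and 99.7, 83.2, 82.9 and 93.3 CPM in Chd8het. All Chd8het libraries lay below all WT libraries, which 0.593% of all genes did. The log2 difference was -0.91 (SE 0.12, adjusted p 0.0658, edgeR) in the model with sex and -0.90 (SE 0.10, adjusted p 0.000227) with the pair block. In nuclei with a marker UMI it was larger, with 167 to 215 CPM in WT and 74.0 to 98.8 CPM in Chd8het, and passed without the block (log2 -1.20, SE 0.14, adjusted p 0.00722), the 1 call of 9539 genes there (0.0105%). Over 24 settings its log2 difference lay between -1.20 and -0.80, and it passed in 9 of them. Mir325 overlaps this gene. Other excitatory nuclei had 110 to 140 CPM in WT and 76.1 to 94.2 CPM in Chd8het, and the difference between the nuclei was not tested.

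4930419G24Rik, an antisense RNA that overlaps Pex5l, passed only with the pair block. Its levels were 351, 389, 281 and 432 CPM in WT and 228, 267, 185 and 362 CPM in Chd8het, and they overlapped. The log2 difference was -0.54 (SE 0.09, adjusted p 0.0461, edgeR), and reads of Pex5l cannot be told apart from it. It was lower in nuclei with a marker UMI (224 CPM) than in those with none (413 CPM).

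**Figure D4:**
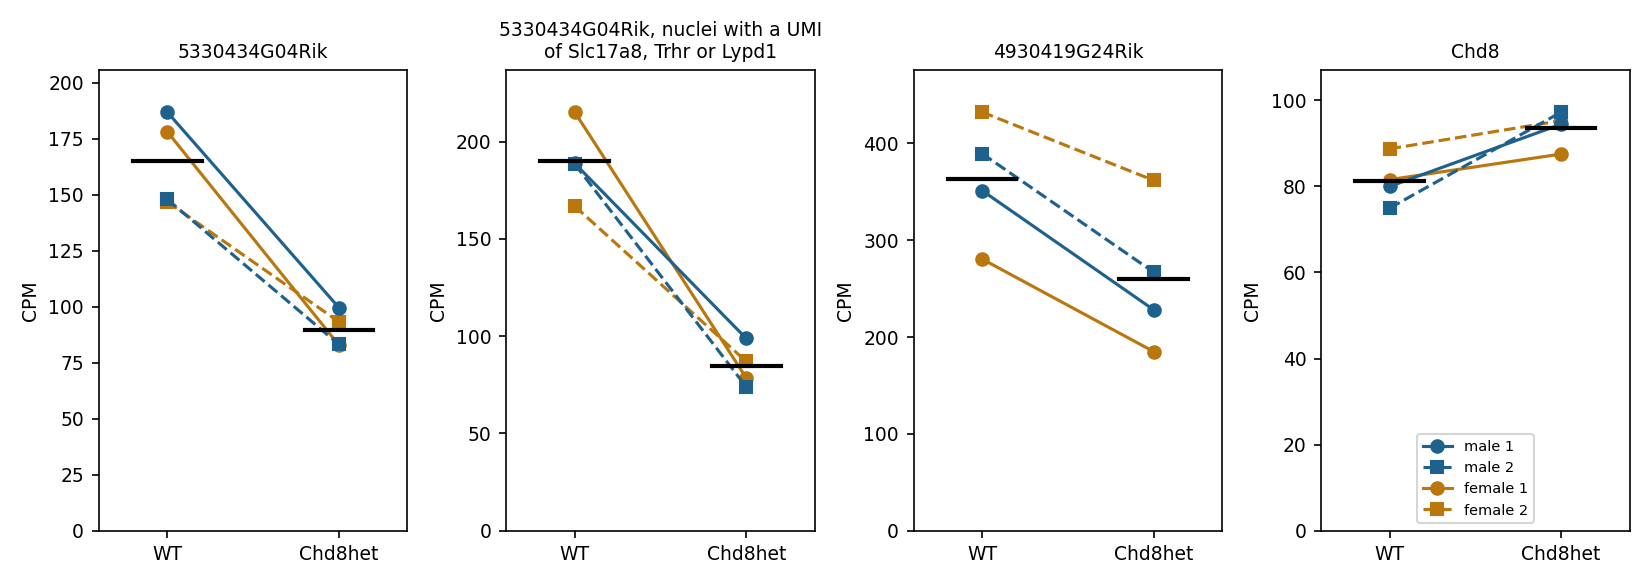
Level in CPM of 5330434G04Rik, of 5330434G04Rik in the nuclei with a UMI of Slc17a8, Trhr or Lypd1, of 4930419G24Rik and of Chd8 in WT and Chd8het libraries, where lines join libraries that share sex and replicate number, circles are single-indexed, squares dual-indexed, and bars are group means. 5330434G04Rik lies at 147 to 187 CPM in WT and 82.9 to 99.7 CPM in Chd8het, while the 4930419G24Rik levels of the genotypes overlap.

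The other genes with the smallest p in the block model did not pass in it. Agreement over pairs is partly fixed by that choice, and the share of all genes alike in 4 of 4 pairs was not counted. Values in Chd8het were higher in 4 of 4 pairs for Zdbf2 (log2 0.91), the protein kinase gene Prkd1 (0.74), Plxdc2 (0.47), Rasgrf2 (0.49) and the antisense RNA Gm15261 (1.53), with adjusted p from 0.105 to 0.142 (edgeR). They were lower in 4 of 4 pairs for 4933411E02Rik (-2.15), Adamts2 (-0.84) and the phosphodiesterase gene Pde10a (-0.42), and in 3 of 4 for Bcas1os2 (-2.21). With no count filter, in the model with sex, Bcas1os2, 4933411E02Rik, Gm15261, Adamts2 and Zdbf2 passed (adjusted p 8.75e-05 to 0.0292, edgeR). Counts were low for some of these. Bcas1os2 had 1, 25, 4 and 53 UMIs in WT and 2, 4, 3 and 10 in Chd8het. 4933411E02Rik had 13, 32, 5 and 19 against 1, 11, 3 and 4, and Gm15261 2, 19, 2 and 9 against 22, 38, 4 and 47. Without the filter, p also fell at a like log2 value. For 5330434G04Rik (log2 -0.91) it went from 1.13e-05 to 2.70e-10 (edgeR). Over the settings the log2 value ran from 0.48 to 1.19 for Zdbf2, 0.87 to 2.57 for Gm15261 and -1.38 to -0.37 for Adamts2. It ran from 0.41 to 1.03 for Prkd1, 0.36 to 0.65 for Plxdc2 and 0.32 to 0.68 for Rasgrf2. For 4933411E02Rik the range was -2.55 to -1.49 and for Pde10a -0.78 to -0.12. Pde10a followed index type, with 516 to 772 CPM in single-indexed and 1112 to 1553 CPM in dual-indexed libraries. Adamts2 did so too (3.29 to 26.1 and 32.4 to 76.1 CPM), as did Maml3 (31.7 to 93.0 and 107 to 169 CPM) and Ephb1 (53.6 to 84.3 and 122 to 148 CPM). A further 4 genes were likewise followed because earlier results on these same data named them, so their agreement over pairs is no separate support. Maml3 (-0.62), Shisa6 (-0.45) and Ephb1 (-0.37) were lower and Glra3 (0.62) higher in 4 of 4 pairs, and none passed (adjusted p 0.141, 0.445, 0.475 and 0.572, edgeR with the pair block). Their log2 values moved between settings, from -1.02 to -0.24 for Maml3, -0.67 to -0.28 for Shisa6, -0.74 to -0.15 for Ephb1 and 0.31 to 0.96 for Glra3.

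No listed gene group held a call for genotype in either model, at a background of 0.00859% and 0.0247% of genes. The CHD remodellers (9 tested) had a median log2 difference of 0.01, the autism-associated genes (69) of -0.03 and the immediate early genes (12) of 0.17, beside 0.00 over all genes, in the model with sex. In that model, unadjusted p was under 0.05 for 0, 1 and 0 of them, beside 2.56% of all genes. With the pair block it was so for 0 of 9, 7 of 70 and 2 of 13, beside 6.54% of all genes. The 1 autism-associated gene was Dscam, a cell adhesion gene, whose levels were 1340, 1307, 1452 and 1334 CPM in WT and 1206, 1017, 1260 and 1177 CPM in Chd8het. Those did not overlap, as for 0.593% of all genes in this direction, and the difference did not pass (log2 -0.27, SE 0.09, adjusted p 1, edgeR). Of the near-projecting markers that the rule does not read, none of Slc17a8, Trhr and Lypd1 passed in edgeR in either model (Slc17a8 had an unadjusted p of 0.0389 and an adjusted p of 0.757 with the pair block). In the same fits, the L6 CT list summed to 1580 to 2072 CPM in WT and 1193 to 1757 CPM in Chd8het. Chd8het male 2 (1193 CPM) and Chd8het female 2 (1557 CPM) lay below all WT libraries, and the other Chd8het libraries within the WT range. In the nuclei with a marker UMI the list had 2223 to 2804 CPM in WT and 1478 to 2200.4 CPM in Chd8het. All Chd8het libraries thus lay below all WT libraries there, though the highest Chd8het library was close to the lowest WT library. Of single genes over all selected nuclei 0.593% lay so. That share was not counted for the nuclei with a marker UMI, a setting added after seeing the data, or for sums over lists. Most of the sum in these nuclei was Hs3st4 (1435 CPM, pooled over libraries), with Tle4 at 513 and Syt6 at 6.90 CPM. Over all selected nuclei, with the pair block, 3 of the 4 L6 CT genes tested were lower at an unadjusted p under 0.05 (3.21% of all genes) and 0 passed. In the model with sex 0 of the 4 were lower at that p (1.12% of all genes). The list's part in the genotype values was not tested.

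The interaction of sex with genotype passed for 0 of 12134 genes (edgeR), with 171 at an unadjusted p under 0.05, and for 0 with the pair block, with 514.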

How the data were processed

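Single-nucleus RNA of 8 cortices was deposited as UMI count matrices, 1 per library, made by the authors against mm10 (GRCm38) with STAR 2.7.9a, STARsolo and Cell Ranger named without roles in the submitters' processing notes. Counts were used as deposited. Raw counts of the selected nuclei were summed per library, and no doublet caller was run: the rule limits interneuron and glial UMIs, and an alternative left out nuclei above 2 times the median UMIs. Sums were compared in edgeR 4.0.16 (quasi-likelihood, filterByExpr with a minimum count of 10, TMM, Benjamini-Hochberg adjustment over all genes tested, R 4.3.3), with sex and genotype as terms, or with library as a block between kinds of nuclei. DESeq2 1.42.0 was an alternative. CPM are raw shares of summed UMIs without TMM scaling. Intervals cover counting error only.

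The members and gene lists were chosen with earlier results of these data known. Named genes were the rule's genes and listed markers, and genes called for genotype with the 6 higher and 6 lower of smallest p under the pair block. To these came the 12 largest differences each way among named genes called alike in all 3 comparisons, and up to 5 per list by p. The 12 each way needed a mean of at least 20 CPM only in the group where they were higher. Some genes known from earlier results were added. That a WT and a Chd8het library of like sex and number form a matched pair was assumed. Such libraries deviated together (r 0.230 to 0.482 over genes). For other WT and Chd8het combinations r was 0.136 to 0.174 with the same index type and -0.404 to -0.0502 with the other. Only the assumed pairs share both sex and index type, so r cannot tell matching by litter from these shared factors. The labels state matched pairs but not which libraries form them. Replicate numbers are those of the sample titles; the deposited matrices are named with other numbers, which group the libraries in the same way. Replicates of a group differed beyond sampling noise (chi-square per degree of freedom 4.05 to 9.34). Positions are from GENCODE M21, where 32158 of 32285 identifiers matched. The tests were also run on simulated counts with 2-fold changes set in 200 genes. The model with sex recovered 71% of them, the pair block 65.5% and the comparison with other excitatory nuclei 97.5%. False calls were 6, 4 and 10. The simulation gave all genes the same dispersion and held no index-type or pair effect, so it does not show recovery in data that have them. Of the calls counted for genotype, 1 gene is not reported here.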

Additional observations from a re-analysis of the deposited data

Results flagged for a closer look

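Single libraries lay far from the other 3 of their genotype in 4 of 62 groups of values examined, where chance gives about 1 in 20. Zdbf2 had 28.6 CPM in WT male 2 and 13.6 to 15.7 CPM in the other WT libraries. Kdm6b, a histone demethylase gene, had 9.62 CPM in WT female 2 against 14.8 to 15.7 CPM, and 31.2 CPM in Chd8het male 2 against 15.0 to 17.8 CPM. Nptx2, a neuronal pentraxin gene, had 6.04 CPM in Chd8het male 2 against 2.30 to 2.77 CPM. Lypd1 differed between genotypes in opposite directions by sex: both male pairs were higher in Chd8het, by 15.9 and 30.5 CPM, while the female pairs differed by -11.3 CPM on average. Female pair 1 was nearly level (65.1 CPM in WT and 63.2 CPM in Chd8het), so the female difference rests on pair 2 (67.8 and 47.1 CPM). Lypd1 was among the 12134 genes tested for an interaction of sex with genotype, of which 0 passed (edgeR). Its own value in that test is not given here.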

How the results depend on the processing

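The count of genes called for genotype, 1 in the model with sex, was 3 with the replicate block and 2 with index type added, without the sex term, with sums thinned to equal UMIs, in DESeq2 and in DESeq2 with the replicate block. It was 18 with no count filter, 3 in nuclei with a marker UMI under the replicate block (5330434G04Rik, C130073E24Rik and Cdh13), and 0 in edgeR under the looser rule, without nuclei of high UMIs and in nuclei with Tle4 (269, 283 and 294 genes at an unadjusted p under 0.05). Leaving out 1 library gave 0 to 1 calls, with 1 call only without Chd8het female 2 or without WT female 1. The cause was not tested. Detection of a marker was 51.7% without thinning.

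Against L6 CT-type nuclei Hcrtr2 was at log2 0.024 in DESeq2, 0.050 under the stricter rule and 0.23 in nuclei with a marker UMI, and leaving out 1 library gave -0.25 (without WT female 1) to 0.094 (without WT female 2), with 0.044 without WT male 2. Kcnc2 was at -0.15 under the stricter rule and -0.28 in nuclei with a marker UMI, and leaving out 1 library gave -0.032 (without Chd8het male 2) to 0.16 (without WT male 1). Against L4/5 IT-type nuclei, leaving out 1 library gave -0.030 (without Chd8het female 2) to 0.21 (without Chd8het male 2) for Cdh13, which was at 0.34 and passed in nuclei with a marker UMI (adjusted p 0.0426, edgeR). The nuclei with a marker UMI or Tle4 were settings added after seeing the data. For the share of nuclei, the paired test by sign flips gave p 0.375 (exact).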
